A study of Mus musculus with 36 samples.

Results

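The genes described here are 10 genes of glucose uptake, glycolysis, lactate formation and fructose bisphosphatase, taken by symbol from the 23845 genes of an estimated-count table of mouse embryo RNA. They are Slc2a1, Hk1, Hk2, Pfkl, Pfkp, Pgk1, Pkm, Ldha, Ldhb and Fbp2, and all 10 were found. The members were selected on their levels in these same 6 groups, in an earlier analysis of these data that had shown the stage differences of Ldhb and Fbp2. The values of the members are therefore given as a description, and nothing is inferred from the tests of these genes. The series holds 36 RNA-seq libraries of mouse embryos, each from a pool of 4 to 5 embryos, and the study asked, by its title, how LINE-1 retrotransposons becoming active after fertilisation bears on chromatin. At the 2-cell stage (2C) there were 4 libraries labelled NI, 7 labelled Ctrl and 6 labelled KRAB. The 8-cell stage (8C) had 6 labelled NI, 6 labelled Ctrl and 7 labelled VP64. KRAB is the name of a domain that represses transcription and VP64 that of a domain that activates it. The labels speak of injection for every library alike, do not spell out NI, do not say what Ctrl embryos received, and give no strain, age or genotype. Nothing in them says that the pools came from separate litters or days, so a p-value here reflects variation among pools that could be technical.

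Glycolysis splits glucose into pyruvate, which lactate dehydrogenase interconverts with lactate. The enzyme is a tetramer of A subunits (Ldha) and B subunits (Ldhb), and the form rich in B subunits is abundant in the mouse egg. The cleaving mouse embryo is known to live first on pyruvate and lactate and to take up and break down glucose in larger amounts towards the blastocyst. Fructose bisphosphatase removes a phosphate from fructose 1,6-bisphosphate, the reverse of the step made by phosphofructokinase.

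Positions of the members are on GRCm38. Slc2a1, the facilitative glucose transporter of most cells, is at chr4:119108711-119137983. The hexokinases that phosphorylate glucose are Hk1 at chr10:62268855-62379908 and Hk2 at chr6:82725025-82774454. The liver-type and platelet-type phosphofructokinase subunits are Pfkl at chr10:77986947-78010083 and Pfkp at chr13:6579768-6648777. Phosphoglycerate kinase is Pgk1 at chrX:106187100-106203699 and muscle-type pyruvate kinase is Pkm at chr9:59656368-59679375. The lactate dehydrogenase subunits are Ldha at chr7:46841475-46855627 and Ldhb at chr6:142490249-142507957, and muscle-type fructose bisphosphatase is Fbp2 at chr13:62836877-62858422.

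The 250 bases before the annotated start of Ldha, Ldhb and Fbp2 are shown because these genes had the highest level per length of all members in some group or, for Ldha, the largest difference of a treatment from both Ctrl and NI. They are RefSeq sequences of build GRCm38.p6, written 5′ to 3′ on the strand of the gene. Capitals mark every match, on either strand, to ACGTG, the core of the hypoxia response element, and to GGGCGG, the GC box. A CACGTG (E-box) holds 2 overlapping ACGTG matches, 1 on each strand. The windows are chr7:46845554-46845803 on the plus strand for Ldha, within the annotated gene and outside its exons, chr6:142507958-142508207 on the minus strand for Ldhb, and chr13:62858401-62858650 on the minus strand for Fbp2, of which 22 bases lie in an annotated exon.
Ldha: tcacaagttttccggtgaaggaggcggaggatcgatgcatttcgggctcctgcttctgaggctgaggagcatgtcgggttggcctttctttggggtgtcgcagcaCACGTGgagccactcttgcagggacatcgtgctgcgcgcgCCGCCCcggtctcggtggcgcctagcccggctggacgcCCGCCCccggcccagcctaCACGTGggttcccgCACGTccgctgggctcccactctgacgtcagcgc
Ldhb: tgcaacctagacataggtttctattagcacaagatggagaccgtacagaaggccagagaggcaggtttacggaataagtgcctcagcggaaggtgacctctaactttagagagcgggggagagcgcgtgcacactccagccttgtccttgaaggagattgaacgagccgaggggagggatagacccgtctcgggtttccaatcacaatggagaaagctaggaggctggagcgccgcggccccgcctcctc
Fbp2: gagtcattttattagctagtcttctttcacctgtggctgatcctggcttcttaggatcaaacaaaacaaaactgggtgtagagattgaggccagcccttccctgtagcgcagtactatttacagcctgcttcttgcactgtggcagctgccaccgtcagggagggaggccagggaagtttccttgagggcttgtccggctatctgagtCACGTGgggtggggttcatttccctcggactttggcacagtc
The Ldha window held 5 ACGTG matches, of which 4 belong to 2 CACGTG, and 2 GC boxes. The Ldhb window held 0 matches to ACGTG and 0 to GGGCGG, and the Fbp2 window held 1 CACGTG, counted as 2 ACGTG matches. Ldha has a second RefSeq start, at whose window both motifs had 0 matches. Over the 13 windows of the 10 members, ACGTG occurred in 6, CACGTG in 2, GGGCGG in 6 and CCAAT, the CCAAT box, in 5. Over 32851 RefSeq windows of this length, the shares were 16.6% for ACGTG, 6.02% for CACGTG, 32.7% for GGGCGG and 33.8% for CCAAT. G and C made up 67.2% of the window of Ldha, 56.4% for Ldhb and 52.4% for Fbp2, beside a median of 52.4% over all windows. Over the 13 windows of the members it ran from 49.6% to 69.6%, with only a window of Hk1 below that median. The shares over all windows were not matched for G and C, so the counts of matches are not set against them. A match describes the sequence only, and binding was not measured here.

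Total counts per library ran from 1043740 to 10035066 at the 2-cell stage and from 1103574 to 13583527 at the 8-cell stage. Summed levels of markers of the 2-cell embryo were 389.6 to 3434 CPM (counts scaled to a common library total) in 2-cell libraries and 11.4 to 179.8 in 8-cell libraries. Maternal oocyte markers summed to 5212 to 45381 CPM and 52.9 to 771.4 CPM in these stages, and markers of the 8-cell and later embryo to 94.8 to 2224 and 2293 to 16972 CPM. Dppa5a gave most of this last sum, with group means of 398 to 794 CPM at the 2-cell and 2817 to 5457 CPM at the 8-cell stage. Of the later-embryo markers, Upp1, Fabp5, Lgals1 and Id2 had lower means at the 8-cell stage in both NI and Ctrl, and the others higher means. A list of sperm genes summed to 2.07 to 26.6 CPM in 8-cell and 55 to 322.9 in 2-cell libraries. Odf2 gave most of this sum at the 2-cell stage, with group means of 55.96 to 171.1 CPM. There the protamine gene Prm2 had group means of 1.87 to 5.50 CPM, and Prm1, Tnp1 and Tnp2 of at most 0.597 CPM. Whether 2-cell libraries hold sperm RNA was not tested. Hsd3b1, a steroid dehydrogenase and marker of cumulus and granulosa cells, was at 40 CPM or more in 5 libraries. These were NI 2C replicate 2, Ctrl 2C replicate 7, KRAB 2C replicates 2 and 6 and VP64 8C replicate 6. The whole list of 20 cumulus and granulosa genes summed to 64.9 to 574.7 CPM over the 2-cell libraries and 214.2 to 1475 CPM over the 8-cell libraries. In Ctrl 2C and KRAB 2C the libraries of high Hsd3b1 had the highest sums of this list. In NI 2C, replicate 2 had 286.4 CPM and replicate 4 had 294.0. In VP64 8C, replicate 6 had 657.5 CPM, and the highest sum, 1475, was in replicate 7, where Hsd3b1 was at 0. Whether the 5 libraries hold cumulus or granulosa cells was not tested. Amh and Lhcgr were at 0 in all 3 groups of the 2-cell stage, and Fshr, Has2, Ptx3 and Lhcgr in all 3 of the 8-cell stage. The gap junction gene Gja1 gave most of this sum at the 8-cell stage, with group means of 361.6 to 667.3 CPM. Another 3 libraries of the 8-cell stage, 1 in each group, held a high Ldhb share: NI replicate 6, Ctrl replicate 6 and VP64 replicate 7. They also had the highest sum of later-embryo markers in their groups, 6479, 16972 and 11558 CPM. Their maternal oocyte markers summed to 173.2, 771.4 and 281.6 CPM. These sums were the highest of the group in Ctrl and VP64, while in NI replicate 5 was higher, at 244.2 CPM. Their TMM scaling factors were the lowest of their groups, at 0.709, 0.521 and 0.632. Ctrl replicate 6 and VP64 replicate 7 had the fewest genes detected in their groups, 9672 and 11343. NI replicate 6 had 12748, where the lowest of NI was 11505. The part of any of these in the share was not tested.

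Ldhb and Fbp2 were the members with the widest difference between the stages, in opposite directions. In NI, Hk1 came close to Ldhb in size, with a log2 difference of 4.62 against -4.67. Ldhb, lactate dehydrogenase B, measured 243, 336, 594 and 891 CPM in the 4 NI libraries of the 2-cell stage. In Ctrl it ranged from 221 to 5622 CPM, with a median of 2162, and in KRAB from 364 to 1514 CPM, with a median of 1112. At the 8-cell stage it ranged from 10.5 to 36.5 CPM, with a median of 17.1, in NI, from 15.3 to 55.7 CPM, with a median of 20.7, in Ctrl, and from 17.0 to 40.8 CPM, with a median of 31.4, in VP64. Every 8-cell library lay below every 2-cell library. The group means were 516 ± 291 (SD, n = 4), 2252 ± 1814 (SD, n = 7) and 1018 ± 428 (SD, n = 6) CPM at the 2-cell stage and 21.7 ± 10.7 (SD, n = 6), 27.4 ± 15.9 (SD, n = 6) and 28.2 ± 9.04 (SD, n = 7) CPM at the 8-cell stage. The log2 difference of 8-cell against 2-cell was -4.67 ± 0.64 (SE) in NI, with a 95% interval of -5.95 to -3.38, and -6.45 ± 0.66 in Ctrl, with an interval of -7.79 to -5.11. In bulk RNA, fewer cells that hold a transcript and less of it per cell cannot be told apart.

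Fbp2, muscle-type fructose bisphosphatase, measured 0.469, 1.31, 1.37 and 1.74 CPM in the NI libraries of the 2-cell stage. It ranged from 1.15 to 31.7 CPM, with a median of 3.97, in Ctrl and from 0 to 5.68 CPM, with a median of 1.85, in KRAB. At the 8-cell stage it ranged from 123 to 1087 CPM, with a median of 459.5, in NI, from 163 to 685 CPM, with a median of 351, in Ctrl, and from 141 to 392 CPM, with a median of 218, in VP64. Every 8-cell library lay above every 2-cell library, and the highest of the latter, Ctrl 2C replicate 3 at 31.7 CPM, stood apart from the other 6 of its group, at 1.15 to 6.45. The log2 difference was 8.62 ± 0.97 in NI and 5.56 ± 0.63 in Ctrl. The 4 NI libraries of the 2-cell stage held 15 counts of Fbp2 in total, so the size of the value in NI rests on few counts. Without Ctrl 2C replicate 3 the value in Ctrl was 6.43.

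**Figure D1:**
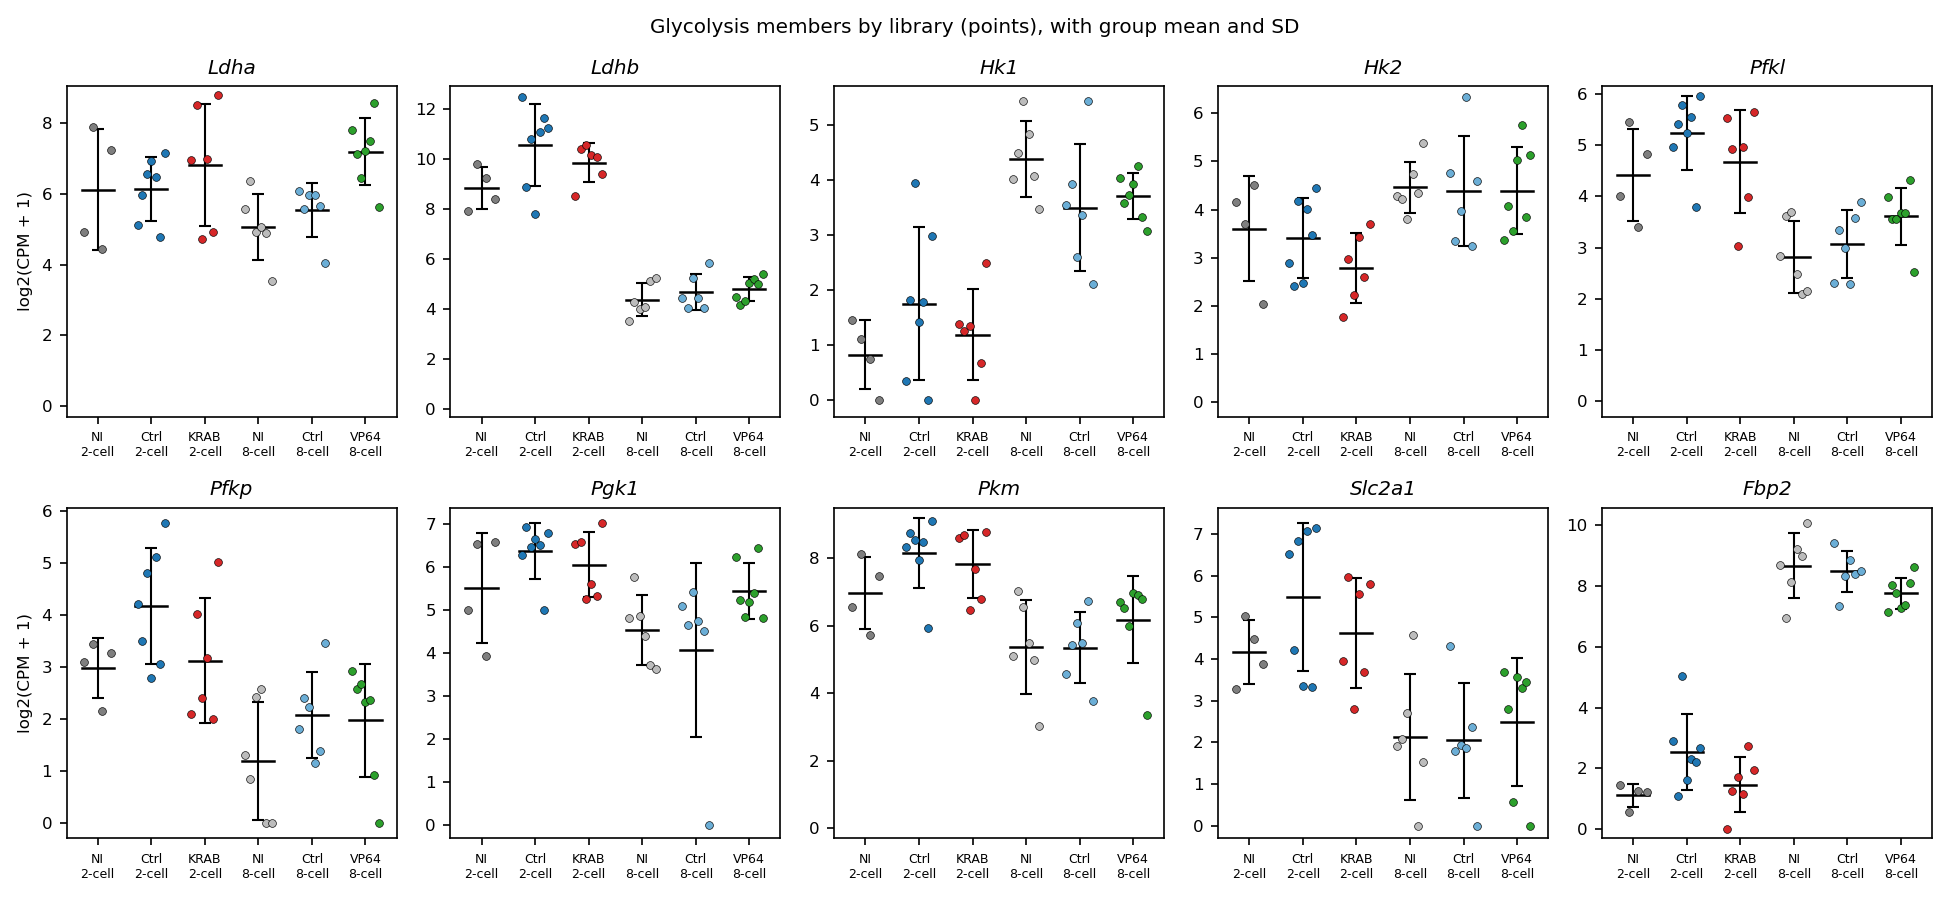
Level of each of the 10 members in every library, as log2(CPM + 1), by treatment and stage. Points are libraries, horizontal bars group means and error bars SDs of the plotted values. Ldhb lies lower, and Fbp2 higher, in every 8-cell library than in every 2-cell library, while the other members overlap between some groups of different stage.

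The glucose transporter gene Slc2a1 was low at the 8-cell stage in most libraries. It measured 8.71, 13.8, 21.2 and 31.9 CPM in NI at the 2-cell stage, where it ranged from 9.12 to 141 CPM, with a median of 91, in Ctrl and from 6.0 to 62.0 CPM, with a median of 30.3, in KRAB. The Ctrl libraries fell into 3 at 9.12 to 17.6 CPM and 4 at 91 to 141. The 8-cell ranges were 0 to 23.0 CPM in NI, 0 to 18.9 in Ctrl and 0 to 11.8 in VP64. The stages overlapped in NI through NI 8C replicate 4, at 23.0 CPM, and in Ctrl through Ctrl 8C replicate 1, at 18.9 CPM. The log2 difference was -1.68 ± 0.91 in NI and -3.92 ± 0.91 in Ctrl, with a 95% interval of -3.52 to 0.16 in NI. Without NI 8C replicate 4 the value in NI was -3.00, and without Ctrl 8C replicate 1 that in Ctrl was -4.93.

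Of the hexokinases, Hk1 was the member at the lowest level per length in all 3 groups of the 2-cell stage. It measured 0, 0.683, 1.17 and 1.74 CPM in NI, 0 to 14.3 in Ctrl and 0 to 4.62 in KRAB at the 2-cell stage, the total being 9 counts over the 4 NI libraries. Hk1 at the 8-cell stage measured 10.1 to 42.2 in NI, 3.31 to 42.0 in Ctrl and 7.39 to 18.1 in VP64. The stages did not overlap in NI and overlapped in Ctrl, with 1 of 6 8-cell libraries above the highest 2-cell library. Its log2 difference was 4.62 ± 1.0 in NI and 1.67 ± 0.66 in Ctrl, and 3.94 in NI without NI 2C replicate 4, which was at 0. In Ctrl it was 1.06 without Ctrl 8C replicate 5 and 2.23 without Ctrl 2C replicate 3. Hk2, the insulin-responsive hexokinase of muscle and of many dividing cells, measured 3.12, 12.0, 16.8 and 21.8 CPM in NI at the 2-cell stage and 13 to 40.6 at the 8-cell stage. In Ctrl the ranges were 4.30 to 20.8 and 8.53 to 79.8. The stages overlapped in both, and the log2 differences were 0.65 ± 0.63 and 1.19 ± 0.53, the latter 0.57 without Ctrl 8C replicate 4.

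In 2-cell libraries, the share of Hk1 in the summed level per length of both hexokinases was 5.86% ± 5.03 (SD, n = 4) in NI, 23.3% ± 17.8 (SD, n = 7) in Ctrl and 22.3% ± 15.4 (SD, n = 6) in KRAB. Some of these shares rest on few counts of both genes together. The lowest were 19 in NI replicate 4 (share 0%), 11 in Ctrl replicate 6 (0%) and 5 in KRAB replicate 1 (42.5%). In 8-cell libraries the Hk1 share was 51.2% ± 18.4 (SD, n = 6) in NI, 38.6% ± 29.1 (SD, n = 6) in Ctrl and 41.0% ± 15.8 (SD, n = 7) in VP64. The NI libraries of the stages did not overlap in this share, and those of Ctrl did. In Ctrl at the 8-cell stage single libraries spanned 11.4% to 84.5%.

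The phosphofructokinase, phosphoglycerate kinase and pyruvate kinase genes were lower on average at the 8-cell stage, with overlapping libraries. Pfkl measured 9.56, 15.1, 27.3 and 42.9 CPM in NI at the 2-cell stage and 3.27 to 12.0 at the 8-cell stage, and 12.8 to 60.8 and 3.89 to 13.8 in Ctrl. The log2 differences were -1.92 ± 0.52 in NI and -2.39 ± 0.48 in Ctrl. Pfkp measured 3.41, 7.55, 8.54 and 9.85 CPM in NI at the 2-cell stage and 0 to 4.97 at the 8-cell stage, and 5.85 to 53.6 and 1.22 to 9.93 in Ctrl. These are log2 differences of -1.91 ± 0.83 and -2.63 ± 0.76.

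Pgk1, which makes ATP in the lower part of glycolysis, measured 14.3, 30.8, 91.2 and 94.1 CPM in NI at the 2-cell stage and 11.3 to 53.6 at the 8-cell stage. In Ctrl it measured 31 to 121 and 0 to 41.8, with Ctrl 8C replicate 6 at 0. The log2 differences were -1.28 ± 0.60 and -1.93 ± 0.55. Pkm, whose enzyme makes pyruvate, measured 51.9, 92.3, 177 and 281 CPM in NI at the 2-cell stage and 7.23 to 129.6 at the 8-cell stage. In Ctrl it measured 60.2 to 549 and 12.7 to 106, and the log2 differences were -1.51 ± 0.63 and -2.84 ± 0.60. Of the 31-base words of its transcripts, Pgk1 shares 54.7% with other genes, Pkm 34.7%, Ldhb 33% and Ldha 19.6%. Of the genes that share these words, 0 of 6 for Pgk1, 0 of 1 for Ldhb, 1 of 16 for Pkm and 540 of 751 for Ldha are rows of the table. How the authors' counting divided such reads was not tested.

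Ldha, lactate dehydrogenase A, differed less between the stages than Ldhb. It measured 20.5, 29.0, 149 and 236 CPM in NI at the 2-cell stage, where it ranged from 26.5 to 141 CPM, with a median of 88.2, in Ctrl. At the 8-cell stage it ranged from 10.7 to 81.6 CPM, with a median of 30.9, in NI and from 15.4 to 66.8 CPM, with a median of 55.2, in Ctrl. The stages overlapped in both, with log2 differences of -1.59 ± 0.66 in NI and -0.77 ± 0.58 in Ctrl. The value in NI was -0.97 without the libraries of high Hsd3b1.

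In 2-cell libraries, the share of Ldhb in the summed level per length of Ldha and Ldhb was 85.9% ± 10.5 (SD, n = 4) in NI, 92.3% ± 10.7 (SD, n = 7) in Ctrl and 85.5% ± 13 (SD, n = 6) in KRAB. Among 8-cell libraries the Ldhb share was 43.1% ± 23.0 (SD, n = 6) in NI, 39.4% ± 21.4 (SD, n = 6) in Ctrl and 20.8% ± 14.1 (SD, n = 7) in VP64. Single 2-cell libraries spanned 65% to 98.7% in KRAB and 69.1% to 99.5% in Ctrl. Among libraries of the 8-cell stage, 1 in each group stood high, at 80.6% in NI, 81.5% in Ctrl and 50.6% in VP64, and these are the 3 named above for their later-embryo markers. Their Ldha was the lowest of their groups, at 10.7, 15.4 and 48.5 CPM.

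**Figure D2:**
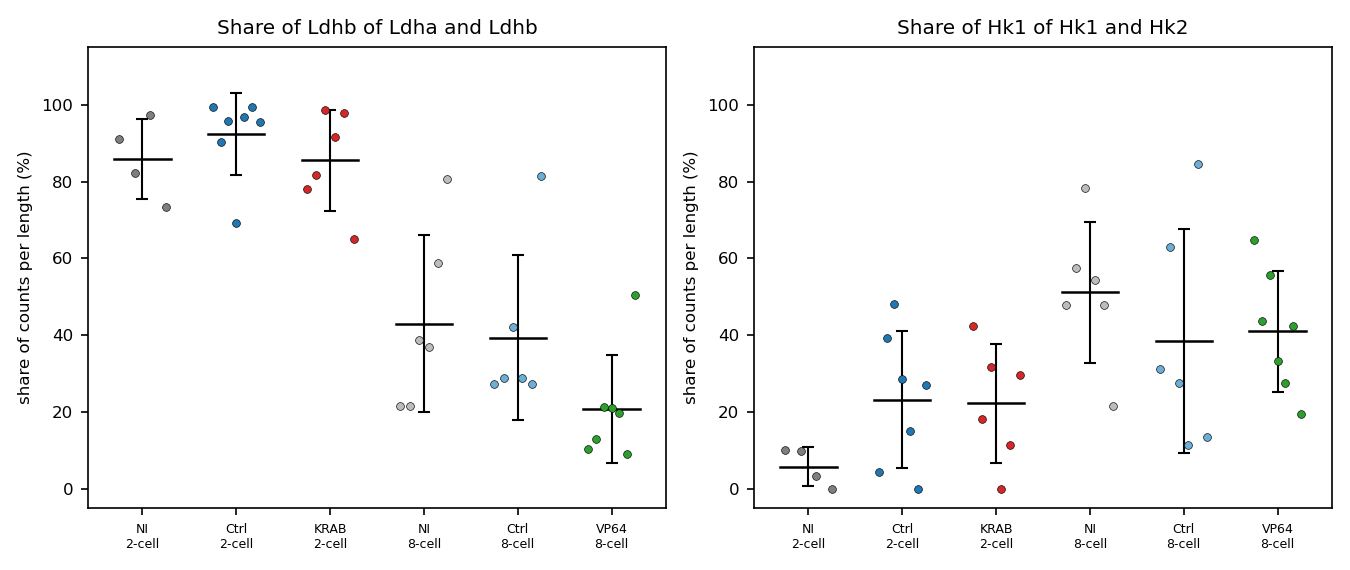
Share of Ldhb in the summed level per length of Ldha and Ldhb (left) and of Hk1 in that of Hk1 and Hk2 (right), in percent, by treatment and stage. Points are libraries, horizontal bars group means and error bars SDs, which can reach past 100%. The mean Ldhb share is between 85.5% and 92.3% in the 2-cell groups and between 20.8% and 43.1% in the 8-cell groups, with 1 high library in each of the latter.

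Per length, Ldhb stood first among the members in all 3 groups of the 2-cell stage and Fbp2 in all 3 of the 8-cell stage. In CPM per kilobase, Ldhb was at 396 ± 223 in NI, 1727 ± 1391 in Ctrl and 781 ± 328 in KRAB (SD, n = 4, 7 and 6). The order after it was Ldha, Pkm and Pgk1 in NI, and Pkm, Ldha and Pgk1 in Ctrl and KRAB. Ldha and Pkm, at 68.4 ± 64.9 and 67.4 ± 45.4 CPM per kilobase in NI, were nearer to each other than their SDs. Among 8-cell groups Fbp2 was at 369.7 ± 245 CPM per kilobase in NI, 288 ± 129 in Ctrl and 169 ± 65.1 in VP64. In VP64 its neighbour Ldha, at 108 ± 68.0, was nearer to it than the larger SD of the pair, while in NI and Ctrl the next member was farther than that. Across the 6 groups, no 2 neighbours in the order of Ldha, Hk2, Pfkl, Pgk1 or Pkm were farther apart than the larger of their SDs.

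The same fit over 13158 genes called 2433 genes higher (18.5%) and 4129 lower (31.4%) at the 8-cell stage in NI, by edgeR's quasi-likelihood test with Benjamini-Hochberg adjusted p under 0.05. Among the members, 2 were higher by this rule (Hk1 and Fbp2) and 4 lower (Ldha, Ldhb, Pfkl and Pkm), with a median log2 difference of -1.55 beside -0.47 over all genes tested. In Ctrl, 22.5% of genes were called higher and 39% lower. Among the members, 3 were higher (Hk1, Hk2 and Fbp2) and 6 lower (Ldhb, Pfkl, Pfkp, Pgk1, Pkm and Slc2a1), with a median of -2.16 beside -0.51. Groups that do not overlap were found for 13.6% of genes in the higher and 19.7% in the lower direction in NI, and for 2 and 1 members. In Ctrl these shares were 7.4% and 16.7%, and the members numbered 1 and 1. These counts come from the contrasts known when the members were chosen, and nothing is read from them.

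In NI, DESeq2's size factors in place of TMM moved the median of all genes from -0.47 to -0.72, and in Ctrl the move was from -0.51 to -0.70. Relative to the median gene, Ldhb was at -4.19 in NI and -5.94 in Ctrl, and Fbp2 at 9.10 and 6.07. With DESeq2's size factors these were -4.14 and -6.02 for Ldhb, and 9.18 and 6.14 for Fbp2. On this scale Hk1 was farther from 0 than Ldhb in NI, at 5.09 (5.07 with DESeq2's size factors), and nearer in Ctrl, at 2.17 (2.22). All 10 members kept the sign of their difference under that scaling in both NI and Ctrl. With it, the members called were 2 higher and 6 lower in NI, and 2 higher and 6 lower in Ctrl. With no filter on low counts, without the libraries of high Hsd3b1, or in a fit of only the groups compared, 2 were higher and 2 lower in NI, Ldha and Pkm being the calls lost. In Ctrl 6 were lower in each of these, and 3, 2 and 1 higher, the last being Fbp2.

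**Figure D3:**
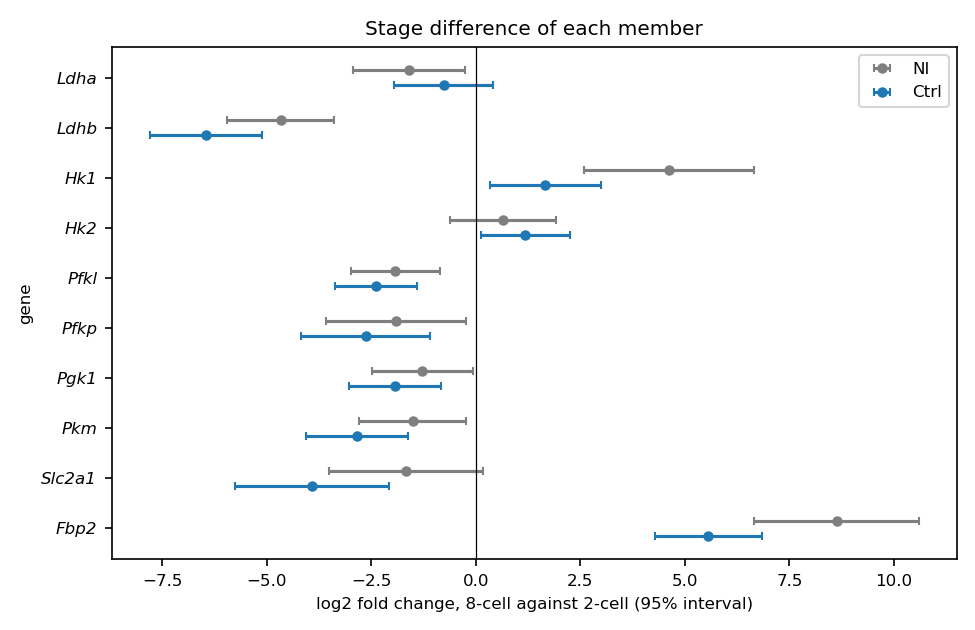
Log2 difference between the 8-cell and the 2-cell stage of each member in NI (grey) and Ctrl (blue), with 95% intervals from the fit over all libraries. Fbp2 and Hk1 lie to the right and Ldhb farthest to the left, and 7 of 10 values are negative in each of NI and Ctrl.

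Whether the stage difference itself differed between Ctrl and NI was tested as an interaction over all 13158 genes. By edgeR 0 genes were called, and the member with the lowest adjusted p was Fbp2, at 0.0943, with a difference of -3.07 ± 0.95. For Hk1 the difference between Ctrl and NI was -2.96 ± 1.14 and for Ldhb -1.78 ± 0.80. As Ctrl and NI were each set against their own 2-cell libraries, these values also hold the difference of Ctrl and NI at the 2-cell stage given further on. Those of Fbp2 and Hk1 rest on 15 and 9 counts in total over the NI libraries of that stage.

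Other genes around glycolysis were taken from 8 lists of 93 genes, of which 92 were in the table and 80 were tested between the stages. In NI, 26 rose and 12 fell from the 2-cell to the 8-cell stage, with a median of 0.11 over the tested genes. With DESeq2's size factors 21 of 36 called genes rose and the median changed sign, to -0.11. It was -0.12 by DESeq2 and 0.79 in a fit of only the groups compared. In Ctrl, 26 rose and 31 fell, with a median of -0.73. In both, 22 rose and 10 fell, and 0 moved in opposite directions. These lists were assembled with earlier results of the series known, and the counts are read beside the shares over all genes given above.

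Of 18 tested genes of the list of other glucose uptake and glycolysis genes, 6 rose and 2 fell in NI, against 6 and 6 in Ctrl. Bpgm, whose enzyme makes 2,3-bisphosphoglycerate, fell in NI from 304 ± 196 to 10.2 ± 3.92 CPM (-5.02 ± 0.50, adjusted p = 9.95e-10). It also fell in Ctrl (-4.99 ± 0.48, adjusted p = 1.45e-10). Slc2a3, a high-affinity glucose transporter, rose in NI from 8.40 ± 6.82 to 47.7 ± 46.6 CPM (2.37 ± 0.98, adjusted p = 0.0411) and in Ctrl (1.96 ± 0.78, adjusted p = 0.0269), a call that was lost in NI without any 1 of 7 libraries (all 4 of the 2-cell stage and NI 8C replicates 2, 3 and 4), at 1.78 to 2.61. In Ctrl it was lost without any 1 of Ctrl 2C replicates 1, 5 and 7 and Ctrl 8C replicates 3 and 5, at 1.64 to 1.72, and both calls were lost without the libraries of high Hsd3b1 (2.61 and 1.65). The call was also lost in NI with DESeq2's size factors (2.17) and in Ctrl in a fit of only the groups compared (1.89). Pgam2, muscle-type phosphoglycerate mutase, rose in NI (3.36 ± 0.94, adjusted p = 0.00325) and in Ctrl (3.17 ± 0.73, adjusted p = 0.000303).

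Of 16 tested glycolysis regulators, 4 rose and 4 fell in NI, against 3 and 7 in Ctrl. Hif1a, the oxygen-regulated subunit of hypoxia-inducible factor 1, fell in NI from 38.3 ± 26.8 to 2.55 ± 2.33 CPM (-4.03 ± 0.86, adjusted p = 0.000196) and in Ctrl (-5.88 ± 0.90, adjusted p = 7.62e-07). Epas1, which encodes the paralogous subunit HIF-2 alpha, rose in NI from 1.27 ± 0.455 to 35.0 ± 13.6 CPM (4.63 ± 0.84, adjusted p = 2.50e-05) and in Ctrl (3.44 ± 0.61, adjusted p = 8.26e-06). Myc, a transcription factor with many glycolytic targets, rose in NI (3.86 ± 0.92, adjusted p = 0.000667) and in Ctrl (2.74 ± 0.69, adjusted p = 0.000808).

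Of 7 tested genes of lactate and pyruvate handling, 2 rose and 0 fell in NI, against 3 and 2 in Ctrl. Bsg, the chaperone of monocarboxylate transporters, rose in NI from 31.1 ± 27.1 to 403 ± 155 CPM (3.60 ± 0.70, adjusted p = 5.98e-05) and in Ctrl (1.76 ± 0.52, adjusted p = 0.00356). Mpc1, a subunit of the mitochondrial pyruvate carrier, rose in NI (1.57 ± 0.56, adjusted p = 0.0194) and in Ctrl (1.89 ± 0.47, adjusted p = 0.000660). Its call in NI was lost without NI 2C replicate 1 (1.31) or NI 2C replicate 3 (1.49). Of 10 genes of the pyruvate dehydrogenase list, 3 rose and 3 fell in NI, against 3 and 7 in Ctrl. Pdha1, the E1 alpha subunit, rose in NI from 44 ± 24.5 to 431 ± 284 CPM (3.19 ± 0.57, adjusted p = 1.86e-05), and Pdk1, a kinase that inactivates the complex, fell from 23.2 ± 14.4 to 3.24 ± 2.55 CPM (-3.02 ± 0.68, adjusted p = 0.000378). In Ctrl Pdha1 rose (2.73 ± 0.44, adjusted p = 2.44e-06) and Pdk1 fell (-3.99 ± 0.68, adjusted p = 4.92e-06). Pdp2, a phosphatase that activates the complex, rose in NI (2.76 ± 0.92, adjusted p = 0.0122) and in Ctrl (2.15 ± 0.73, adjusted p = 0.0102).

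Of 12 genes of the citric acid cycle, 6 rose and 1 fell in NI, against 5 and 5 in Ctrl. Suclg1, a succinyl-CoA ligase subunit, rose in NI from 3.90 ± 2.68 to 195 ± 116 CPM (5.47 ± 0.79, adjusted p = 6.40e-07) and in Ctrl (3.24 ± 0.55, adjusted p = 4.79e-06). Idh3g, an isocitrate dehydrogenase subunit, rose in NI (3.19 ± 0.75, adjusted p = 0.000570), and so did Mdh2, mitochondrial malate dehydrogenase (2.56 ± 0.54, adjusted p = 0.000156). Of 7 tested genes of the pentose phosphate pathway, 3 rose and 1 fell in NI, against 4 and 1 in Ctrl. G6pdx, its entry enzyme, fell in NI from 93.2 ± 55 to 11.3 ± 7.18 CPM (-3.15 ± 0.84, adjusted p = 0.00219) and in Ctrl (-6.10 ± 0.91, adjusted p = 5.03e-07). Tkt and Taldo1, of its non-oxidative branch, rose in NI (2.91 ± 0.65, adjusted p = 0.000370, and 2.55 ± 0.60, adjusted p = 0.000616). Of 4 tested genes of gluconeogenesis, 1 rose and 1 fell in each of NI and Ctrl, the riser being G6pc3 in both. Of 6 genes of the malate-aspartate shuttle, 1 rose and 0 fell in NI, against 1 and 2 in Ctrl, and Slc25a12, an aspartate-glutamate carrier, was the riser in both. In Ctrl its call was lost, at log2 differences of 1.01 to 1.09, without any 1 of Ctrl 2C replicates 1, 2, 4, 5 and 7 and Ctrl 8C replicate 2. It was also lost with DESeq2's size factors (0.97), without the libraries of high Hsd3b1 (1.09) and in a fit of only the groups compared (1.11).

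**Figure D4:**
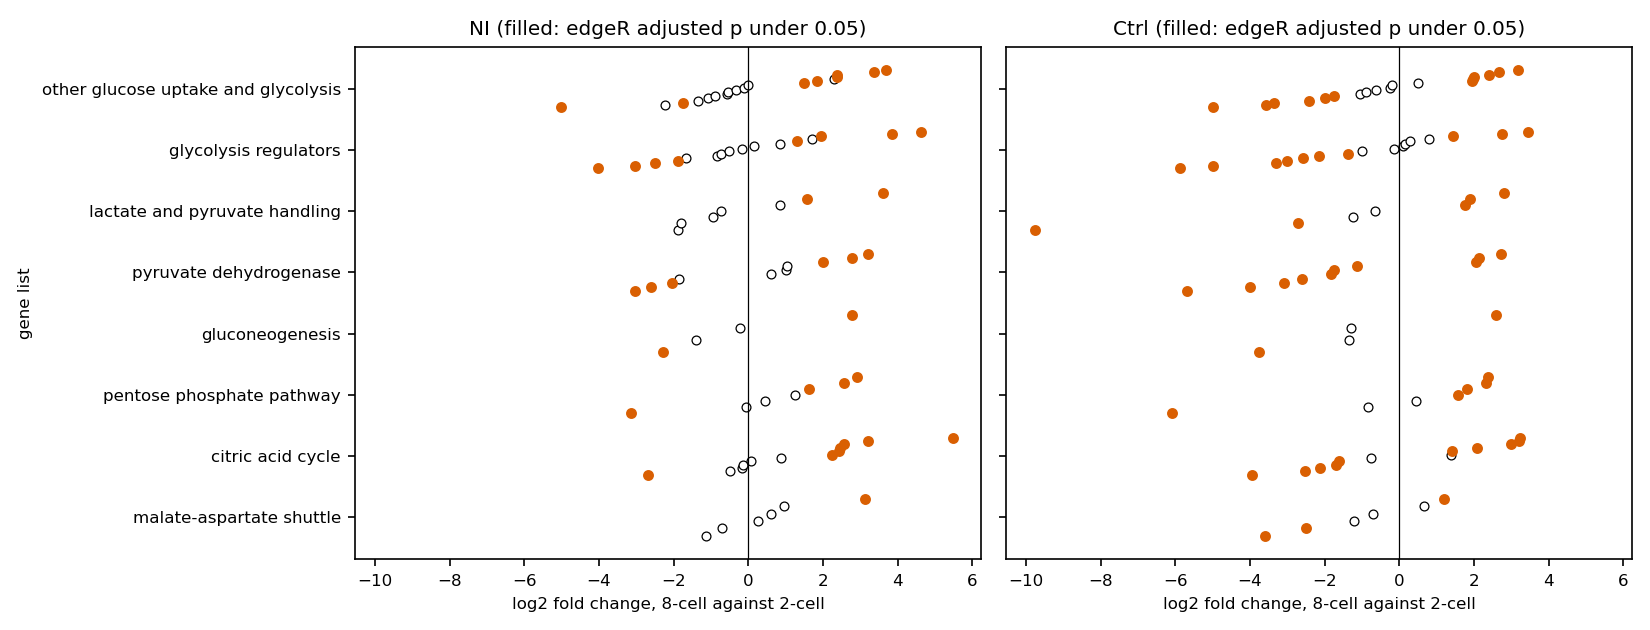
Log2 difference between the 8-cell and the 2-cell stage for every tested gene of the 8 lists, in NI (left) and Ctrl (right). Filled points passed edgeR's adjusted p of 0.05, open points did not, and the vertical spread within a list has no meaning. Called genes lie on both sides of 0 in most lists, 26 to the right and 12 to the left in NI.

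KRAB was compared with Ctrl and with NI at the 2-cell stage, and Ctrl with NI as the background of these, so that these comparisons share libraries. Hk1 did not pass the filter on low counts there, which left 9 members. By edgeR 0 members were called in KRAB against Ctrl, as were 0% of all 11799 genes. At an unadjusted p under 0.05 there was 1 member, Ldha, beside 15.6% of all genes, and DESeq2 called 0 members beside 2.05%. Ldha ranged from 25.2 to 438 CPM, with a median of 125, in KRAB and 26.5 to 141 in Ctrl, with 2 of 6 KRAB libraries above every Ctrl library. These were replicates 2 and 6, at 365.2 and 438.5 CPM, in which Hsd3b1 was at 207.1 and 172.6 CPM. The log2 difference was 1.36 ± 0.63 (95% interval 0.04 to 2.68), with an adjusted p of 0.308 by edgeR. Without the 5 libraries of high Hsd3b1 it was 0.41 ± 0.64. Ldhb was -1.02 ± 0.62 in this comparison, all 6 KRAB libraries lying below the median of Ctrl and 0 below its lowest. The other 7 members had differences between -1.46, for Fbp2, and -0.07. That of Fbp2 was -0.55 without Ctrl 2C replicate 3.

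In KRAB against NI, 0 members were called by edgeR, 0 had an unadjusted p under 0.05 and DESeq2 called 0, beside 0%, 3.12% and 0% of all genes. The differences lay between -1.15 ± 0.60 for Hk2 and 0.96 ± 0.73 for Ldhb. For Ldha it was 0.79 ± 0.75, moving to 1.47 without NI 2C replicate 2, to 0.31 without KRAB 2C replicate 6 and to 0.31 without all libraries of high Hsd3b1.

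In Ctrl against NI at the 2-cell stage, edgeR called 0 members and 0% of all genes. With an unadjusted p under 0.05, 3 of 9 members were found, all higher in Ctrl, beside 23.4% of all genes, and DESeq2 called 1, Ldhb, beside 9.2%. Ldhb differed by 1.97 ± 0.75, with 5 of 7 Ctrl libraries above the highest NI library and 1 below the lowest. Slc2a1 differed by 1.66 ± 0.77 and Fbp2 by 2.41 ± 0.95, the latter 1.43 without Ctrl 2C replicate 3. The intervals were 0.40 to 3.55 for Ldhb, 0.06 to 3.27 for Slc2a1 and 0.43 to 4.40 for Fbp2.

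VP64 was compared with Ctrl and with NI at the 8-cell stage, again with shared libraries. By edgeR 0 of 10 members were called against Ctrl, as were 0% of all 9850 genes. At an unadjusted p under 0.05 there was 1 member, Ldha, beside 3.99% of all genes, and DESeq2 called 0 members beside 0.0102%. Against NI edgeR again called 0 members and 0% of genes. There 2 members had an unadjusted p under 0.05, Ldha higher and Fbp2 lower, beside 7.17%, and DESeq2 called 1, Ldha, beside 0.213%.

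Ldha measured 48.5, 86.1, 139, 145, 178, 224 and 379 CPM in the 7 VP64 libraries. In the other 8-cell groups it measured 15.4, 46.1, 49.4, 61, 61.8 and 66.8 CPM (Ctrl) and 10.7, 28.6, 29.3, 32.6, 46.8 and 81.6 CPM (NI). Of the 7 VP64 libraries, 6 lay above every Ctrl and every NI library, and replicate 7, at 48.5 CPM, lay among them. The means were 171 ± 108 (SD, n = 7), 50.1 ± 18.7 (SD, n = 6) and 38.3 ± 24.2 (SD, n = 6) CPM. The log2 difference was 1.77 ± 0.46 against Ctrl, with a 95% interval of 0.81 to 2.72, and 2.18 ± 0.47 against NI, with an interval of 1.2 to 3.15. By edgeR the adjusted p was 0.999 and 0.254. The highest value, in replicate 6, came with 229.9 CPM of Hsd3b1 and 107.8 CPM of Cyp11a1, 2 genes of steroid synthesis, while the other 6 VP64 libraries had at most 0.524 CPM of Hsd3b1. Without replicate 6 the difference was 1.44 ± 0.44 against Ctrl and 1.86 ± 0.45 against NI, and the other 6 libraries measured 136.7 ± 62.7 CPM of Ldha (SD, n = 6).

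**Figure D5:**
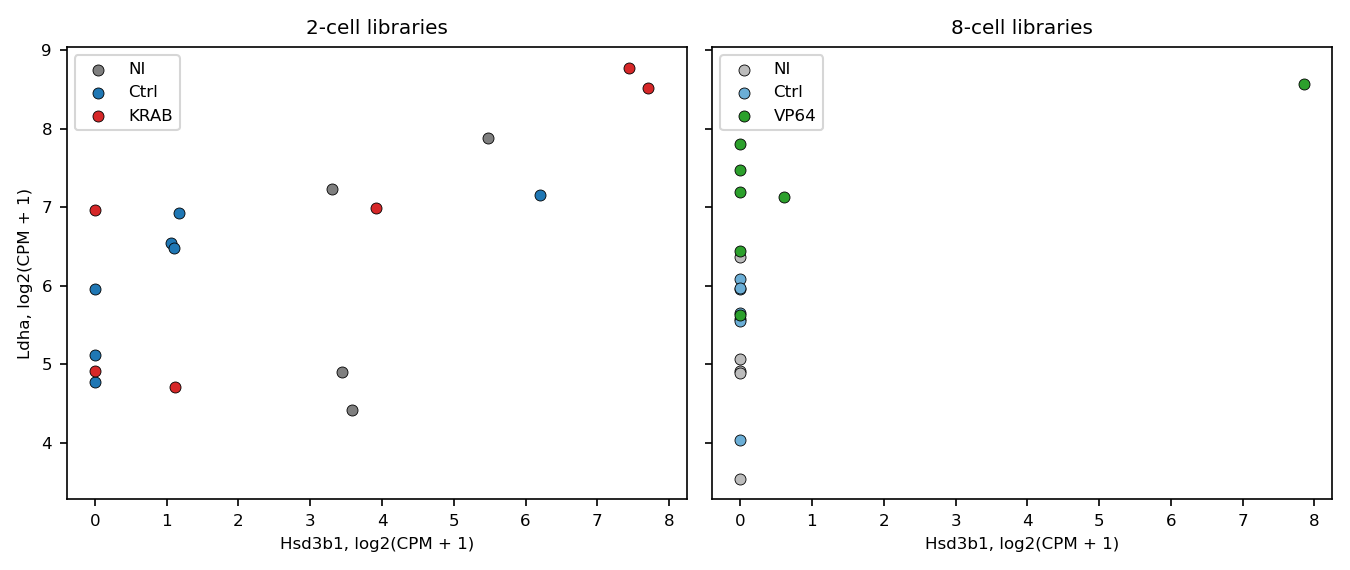
Ldha against Hsd3b1 in every library, both as log2(CPM + 1), at the 2-cell (left) and 8-cell stage (right). Points are libraries, coloured by treatment. The highest Ldha of the 2-cell libraries, 438.5 and 365.2 CPM, and of the 8-cell libraries, 379.0 CPM, is in libraries with more than 100 CPM of Hsd3b1, and the other VP64 libraries have Ldha of 48.5 to 223.6 CPM at 0 or near 0 Hsd3b1.

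The other members differed less in VP64. Fbp2 ranged from 141 to 392 CPM, with a median of 218, and all 7 VP64 libraries lay below the median of NI and 6 of 7 below that of Ctrl. Its difference was -0.76 ± 0.41 against Ctrl and -1.09 ± 0.41 against NI, the latter -0.66 without NI 8C replicate 6. Pgk1 was 0.92 ± 0.55 and 0.90 ± 0.56, and Pkm 0.84 ± 0.56 and 0.67 ± 0.56, against Ctrl and NI. For Ldhb the difference from Ctrl was -0.00 ± 0.40, with an interval of -0.83 to 0.83, and its sign changed with DESeq2's size factors. Against NI it was 0.40 ± 0.40. The mean Ldhb share of VP64, given above, was the lowest of the 8-cell groups, and its libraries overlapped those of Ctrl and NI.

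In Ctrl against NI at the 8-cell stage, 0 members were called by edgeR and by DESeq2 and 0 had an unadjusted p under 0.05, beside 0%, 0.0102% and 4.36% of all genes. The differences lay between -0.63 ± 0.47 for Hk1 and 0.95 ± 0.85 for Pfkp. They were -1.33 for Hk1 without Ctrl 8C replicate 5 and 0.35 for Pfkp without Ctrl 8C replicate 6.

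Of the other listed genes, 76 were tested at the 2-cell stage and 67 at the 8-cell stage, and edgeR called 0 in each of the 6 treatment comparisons. At an unadjusted p under 0.05, 2 were higher and 13 lower in KRAB against Ctrl, 0 in KRAB against NI, and 18 higher and 3 lower in Ctrl against NI. Over all genes, in either direction, the shares were 15.6%, 3.12% and 23.4%. DESeq2 called 8 higher in the last and 0 in the other 2, beside 9.2%, 2.05% and 0% of all genes. For the 8-cell stage, the unadjusted counts were 1 higher and 3 lower in VP64 against Ctrl, 4 and 3 in VP64 against NI, and 2 and 0 in Ctrl against NI. The shares over all genes were 3.99%, 7.17% and 4.36%. DESeq2 called 0 in all 3, beside 0.0102%, 0.213% and 0.0102% of all genes. These counts are given as a description.

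Across the 6 groups, the genes most like 3 members in their pattern were sought among 8950 genes, by the root mean square difference of group means of log2(CPM + 1), each gene centred on its own mean. For Ldhb they were Kif17 (0.137), Zfp957 (0.162) and Ehf (0.168), all with means of 31.7 CPM or more in the 2-cell groups and 1.77 CPM or less in the 8-cell groups. For Fbp2 they were Cldn4 (0.238), a tight junction claudin, Tdgf1 (0.317), a Nodal co-receptor, and Sfn (0.394). For Slc2a1 they were Man1c1 (0.0700), Rhd (0.113) and Bmx (0.114). In the 8-cell groups Man1c1 and Bmx had means of 0 to 0.546 CPM, beside 5.18 to 6.86 CPM for Slc2a1. Near 0 the added 1 makes fold differences look smaller, for these genes and for those like Ldhb. The measure rests on 6 group means that share libraries, and it is a description.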

How the data were processed

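Per the submitters' processing notes, the authors used Bowtie2, RSEM and mm10 to make the deposited expected counts per gene. The annotation, and any version, is not given in the sources used here. Reads that fit more than 1 gene are shared out by RSEM. Per the labels' protocols, SMART-seq v4 made the cDNA. Groups follow the labels of treatment and stage, and replicate numbers, given in accession order, only name libraries. The members and the gene lists were chosen with earlier results of these data known.

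The deposited expected counts were rounded and tested with edgeR 4.0.16 (R 4.3.3, limma 3.58.1): quasi-likelihood test, robust, TMM, filterByExpr with a minimum count of 10 and minimum total of 15, Benjamini-Hochberg adjustment over all genes at 0.05. Stage comparisons and the interaction used all 36 libraries (13158 genes), others the libraries of their stage (11799 genes at 2C, 9850 at 8C). The biological coefficient of variation was 0.703, 0.738 and 0.609. CPM are rounded counts divided by the TMM-scaled library total; levels per kilobase divide them by the median length of coding GENCODE vM21 transcripts. SEs of log2 differences come from the F statistic, and intervals cover 95%. The code was tested on simulated data. None of 93 replicate pairs agreed within sampling noise, as the lowest chi-square per degree of freedom was 6.92. Per-sample columns not used numbered 0.

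All 10 members were named. From each list, up to 3 genes with the largest change were named, among those called in the same direction in both NI and Ctrl and with a mean of 10 CPM in a group. Like genes also needed 10 CPM in a group. Alternatives were DESeq2 1.42.0, its size factors, no filter, only the groups compared, each library left out, and, chosen after seeing the data, leaving out the 5 libraries with Hsd3b1 at 40 CPM or more.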

Additional observations from a re-analysis of the deposited data

Results flagged for a closer look

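In 60 groups of 4 to 7 libraries (10 members in 6 groups), 7 held a library whose distance from its nearest neighbour was a large part of the range of the group. The threshold, that of Dixon's ratio, flags about 1 in 20 groups when values are normally distributed. Levels in CPM need not be so distributed, so the 7 cannot be set against that rate. All 7 were the highest of their group. Slc2a1 was at 23.0 CPM in NI 8C replicate 4, the other 5 being at 0 to 5.56. It was at 18.9 CPM in Ctrl 8C replicate 1, beside 0 to 4.16 in the other 5. Fbp2 was at 31.7 CPM in Ctrl 2C replicate 3, beside 1.15 to 6.45. Hk1 was at 42.0 CPM in Ctrl 8C replicate 5, beside 3.31 to 14.1, and at 4.62 CPM in KRAB 2C replicate 6, beside 0 to 1.62. Hk2 was at 79.8 CPM in Ctrl 8C replicate 4, beside 8.53 to 26.1. Pfkp was at 9.93 CPM in Ctrl 8C replicate 6, beside 1.22 to 4.30.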

How the results depend on the processing

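No result changed direction while called. DESeq2 called 242 genes in KRAB against Ctrl, 1086 in Ctrl against NI at the 2-cell stage (8 of them other listed genes), 1 in VP64 against Ctrl, 21 in VP64 against NI and 1 in Ctrl against NI at the 8-cell stage, where edgeR called 0. Leaving out 1 library gave 0 to 159 genes in KRAB against Ctrl and 0 to 1374 in Ctrl against NI at the 2-cell stage, with 0 to 9 other listed genes, the highest counts all without Ctrl 2C replicate 6, the shallowest of the 2-cell libraries. Between the stages, leaving out 1 library gave 5824 to 6454 genes in NI and 7558 to 8342 in Ctrl, and 29 to 37 and 51 to 58 other listed genes. In fits of only the groups compared, 2494 of 5091 called genes in NI and 2089 of 5877 in Ctrl were higher at the 8-cell stage, beside 2433 of 6562 and 2957 of 8092. Ldhb and Fbp2 kept their calls between the stages in NI and Ctrl in every fit, Ldha and Pkm in NI in 4 of 10 fits with 1 library left out, and Hk2 and Hk1 in Ctrl in 4 and 8 of 13. Pfkp in KRAB against NI was -0.56 without the libraries of high Hsd3b1. The cause of these changes was not tested. No paired analysis was possible because the labels carry no replicate numbers. Genes at a few counts per library, such as Hk1 and Fbp2 in NI at the 2-cell stage, are limited by depth.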
